A study of Mus musculus with 12 samples.

Results

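The homeostatic microglia genes are 9 genes by which resting microglia, the resident macrophages of the brain, are usually recognised: P2ry12, P2ry13, Tmem119, Cx3cr1, Csf1r, Siglech, Gpr34, Itgam and Aif1. They were chosen by symbol from the 21937 genes of the deposited table, and all 9 were listed and tested. Myelin, the stack of membrane that oligodendrocytes wrap around axons, had been purified as a light-weight membrane fraction from the brains of wild-type male c57Bl6/N mice at P18 (postnatal day 18), P75, 6 months and 24 months, and its RNA was sequenced. Each age had 3 libraries, 12 in all. No treatment, transgene or cell sort was involved, and a whole-brain membrane fraction can carry RNA of any cell that comes down with it. The brains at 6 months were individual mice per the study's text, while at the other ages the labels give replicate numbers only, so p-values measure the spread between libraries, which may be technical.

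Microglia extend fine processes that continually survey the tissue. In the undisturbed brain they express receptors for nucleotides, chemokines and growth factors that guide these processes and keep the cells alive, and several of these genes, P2ry12, Tmem119 and Cx3cr1 among them, are known to decline when microglia become activated, whereas Aif1 and Itgam are commonly kept or raised. In white matter microglia also take up myelin debris. The nucleotide receptors P2ry12 and P2ry13 both bind ADP. Gpr34 is a receptor for lysophosphatidylserine, Cx3cr1 binds the neuronal chemokine fractalkine, and Csf1r is the tyrosine kinase receptor for CSF1 and IL34 on which microglial survival depends. Siglech is a sialic acid-binding lectin, Itgam (CD11b) is the alpha chain of complement receptor 3, Tmem119 is a membrane protein used as a microglial marker, and Aif1 encodes IBA1, a cytoplasmic protein that binds calcium and actin.

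Microglial identity depends on the ETS-family factor PU.1, so promoters are shown as the reference sequence in which ETS-type cores were looked for. Of the 9 genes, 6 had an entry in the RefSeq promoter table, built on GRCm38.p6. In the 250 bases before the annotated start, the letters GAGGAA (or their reverse complement TTCCTC) occurred in 3 of these 6, P2ry13, Itgam and Aif1, and in 23.3% of the 32851 windows of the table. AGGAAG (or CTTCCT), which overlaps GAGGAA in the joint run GAGGAAG, occurred in 3 of 6, P2ry12, P2ry13 and Itgam, and in 29.5% of all windows. The 4 promoters with a match are printed on the strand of the gene with the matches in capitals. Their coordinates on NCBIM37 (mm9), the build of the data, are chr3:59066908-59067157 on the minus strand for P2ry12, chr3:59014805-59015054 on the minus strand for P2ry13, chr7:135205904-135206153 on the plus strand for Itgam and chr17:35312998-35313247 on the minus strand for Aif1.
P2ry12: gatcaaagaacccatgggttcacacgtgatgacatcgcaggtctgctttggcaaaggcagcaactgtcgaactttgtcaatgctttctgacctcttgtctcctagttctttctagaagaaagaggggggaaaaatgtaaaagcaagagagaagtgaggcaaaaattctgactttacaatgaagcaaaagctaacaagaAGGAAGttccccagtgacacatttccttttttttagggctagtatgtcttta
P2ry13: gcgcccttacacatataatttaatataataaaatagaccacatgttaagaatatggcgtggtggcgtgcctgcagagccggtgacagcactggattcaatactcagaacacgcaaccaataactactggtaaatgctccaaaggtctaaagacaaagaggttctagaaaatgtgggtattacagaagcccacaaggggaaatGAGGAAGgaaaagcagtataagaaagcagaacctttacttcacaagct
Itgam: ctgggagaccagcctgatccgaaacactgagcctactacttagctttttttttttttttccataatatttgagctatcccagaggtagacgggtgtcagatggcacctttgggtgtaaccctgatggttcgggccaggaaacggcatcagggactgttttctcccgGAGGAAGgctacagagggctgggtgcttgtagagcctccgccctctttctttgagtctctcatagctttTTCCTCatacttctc
Aif1: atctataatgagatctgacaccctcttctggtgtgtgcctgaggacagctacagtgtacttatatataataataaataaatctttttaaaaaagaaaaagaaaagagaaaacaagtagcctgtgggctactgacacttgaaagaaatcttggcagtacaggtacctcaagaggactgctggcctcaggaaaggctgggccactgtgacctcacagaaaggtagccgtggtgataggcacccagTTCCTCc
P2ry13 and Itgam hold the joint run, which begins 48 bases before the start in P2ry13 and 84 bases before it in Itgam. In P2ry12 the match begins 52 bases before the start and in Aif1 7 bases before it. These distances run from the RefSeq start, which differs from the GENCODE gene start used for the coordinates of the genes: the GENCODE start of P2ry12 lies 154 bases further downstream, and in Aif1 the window reaches 16 bases into the GENCODE gene, so that the match of Aif1 lies inside it. A match in these windows is a description of the letters and does not show that a factor binds there.

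The values are normalized read counts, that is, reads per gene divided by a size factor of the library, with no correction for transcript length. The libraries held 20299052 to 27214385 reads on genes, and the 9 genes together took 0.0116% to 0.0268% of them. Every library had reads on all 9 genes, from 88 reads for Itgam in P18 replicate 3 to 1716 reads for Csf1r in 6 months replicate 1. At P18 the coefficient of variation between replicates was 8.15% to 29.9% across the 9 genes, where counting error alone would give 3.94% to 9.60%, and at 24 months it was 2.16% to 14.6% against 2.73% to 6.51%. In these bulk samples fewer cells of a type and less RNA per cell cannot be told apart. P18 replicate 3 was the lowest library of its age for 9 of 9 genes, with a median deviation of -0.29 on the log2 scale, and P75 replicate 2 was the lowest of its age for 8 of 9, with -0.15. The deviation of all genes was 0.02 and 0.00 in the same libraries. P18 replicate 3 also held the lowest summed level of myelin genes at P18 (2482000 against 4228000 and 6201000) and the lowest of astrocyte markers (97460 against 118600 and 118100), and its summed level of neuron markers was the highest (189800 against 169100 and 155600).

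Changes were tested between ages with limma on log2(normalized read count + 1) across 14634 genes, and a gene was called changed at a Benjamini-Hochberg adjusted p under 0.1. Over the whole span from P18 to 24 months, 8 of the 9 homeostatic genes rose and none fell, and the exception was Aif1. Of all genes tested, 34.7% rose and 34.3% fell in that comparison. The median log2 change of the 9 genes was 0.91, beside -0.01 for all genes. Not all members moved at the same time. From P18 to P75, 5 of 9 rose (25.9% of all genes rose and 22.9% fell), from P75 to 6 months 5 rose and 1 fell (31.2% and 29.4%), and from 6 to 24 months 2 rose (16.6% and 12.7%). From P75 to 24 months 8 of 9 rose, where 28.8% of all genes rose and 26.1% fell. In the order of these 4 comparisons, the median log2 change of the 9 genes was 0.36, 0.33, 0.20 and 0.79, beside 0.02, 0.01, 0.03 and 0.00 for all genes. Leaving out a single library moved some of these medians by over 1.5 times: from P18 to P75 the median was 0.14 without P18 replicate 3, and from 6 to 24 months it was 0.0879 without 6 months replicate 3. Without P75 replicate 3, the number of genes that rose from P18 to P75 was 3. Without P18 replicate 3 and P75 replicate 2 together, 5 of the 9 genes rose in that step, with a median log2 change of 0.28. Comparisons that share an age share its 3 libraries and are not independent of each other.

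**Figure D1:**
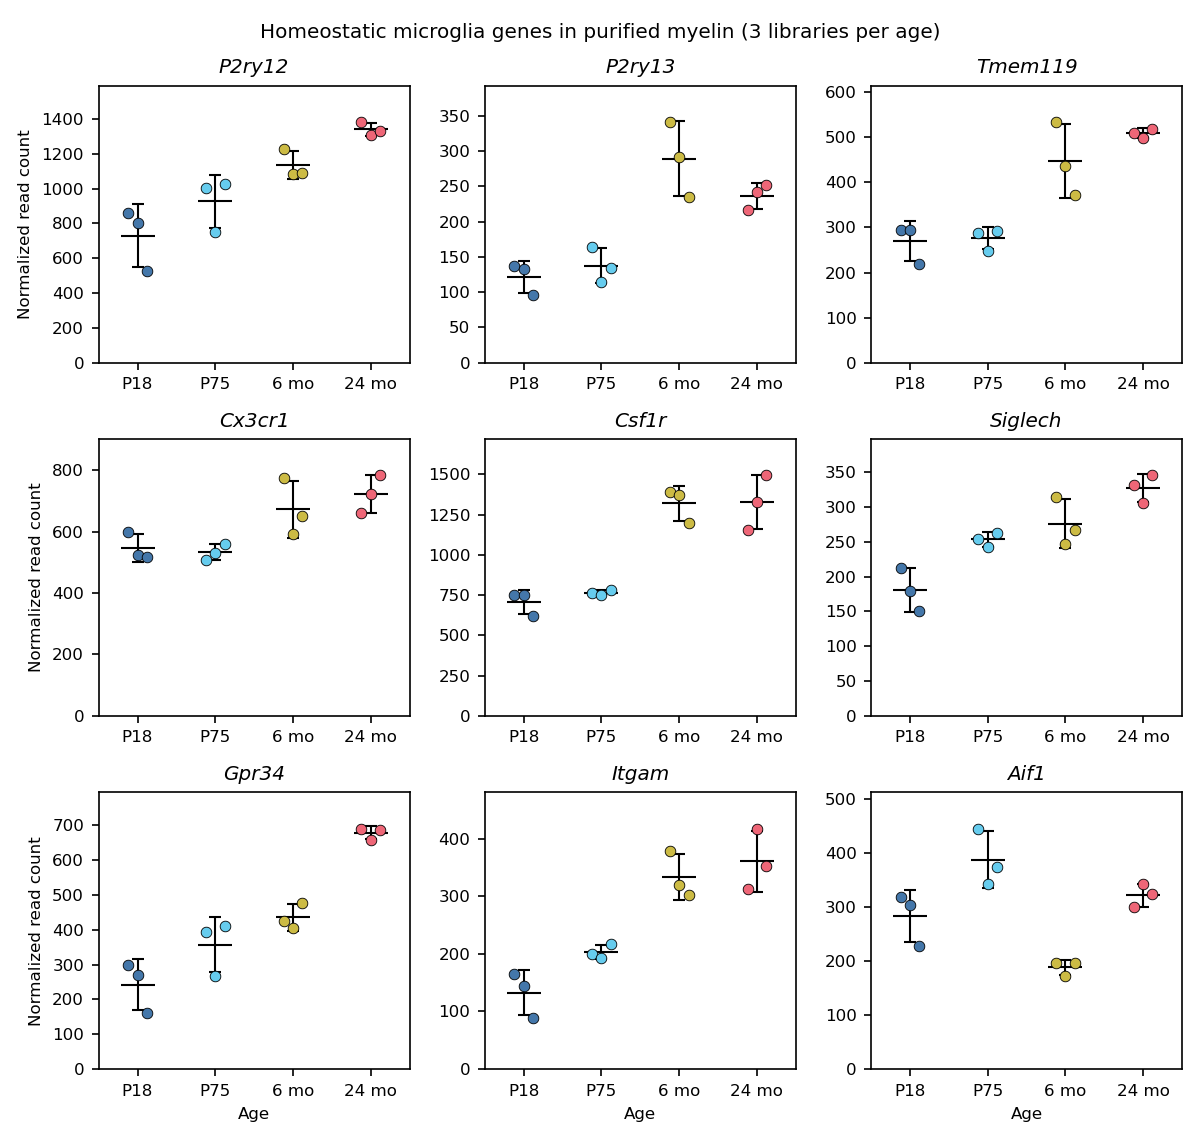
Normalized read count (vertical axes, each from 0) of the 9 genes at P18, P75, 6 months and 24 months, with 1 point per library and bars for the mean ± SD of 3 libraries. At 24 months 8 genes lie above all their P18 values, whereas Aif1 is lowest at 6 months, at 172 to 197.

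P2ry12, the ADP receptor that draws microglial processes to sites of injury, had a higher mean at each later age. The normalized read count of P2ry12 was 862, 806 and 525 at P18, 1002, 751 and 1027 at P75, 1231, 1086 and 1091 at 6 months, and 1383, 1308 and 1331 at 24 months. P18 and P75 overlapped, whereas every 6 month library lay above every P75 library and every 24 month library above every 6 month library. The means were 731 ± 180, 927 ± 153, 1136 ± 82.4 and 1341 ± 38.3 (SD, n = 3 at each age). The rise from P18 to P75 (log2 change 0.36, SE 0.15, limma Benjamini-Hochberg adjusted p = 0.0689) was no longer called without P18 replicate 3 (0.14, adjusted p = 0.349), without P75 replicate 1 (0.30, adjusted p = 0.196) or without P75 replicate 3 (0.28, adjusted p = 0.223). The step from P75 to 6 months was just outside the threshold (0.30, SE 0.15, limma Benjamini-Hochberg adjusted p = 0.103). It was called under several alternatives. Among them were limma on the 2 ages alone (adjusted p = 0.0323), limma with the replicate number as a block (adjusted p = 0.0916) and edgeR (adjusted p = 0.0988). It was not called with DESeq2 (adjusted p = 0.111), and without P75 replicate 2 it was 0.16 (limma adjusted p = 0.417). The step from 6 to 24 months was 0.24 (adjusted p = 0.276, and 0.0283 without P18 replicate 3 and P75 replicate 2). Over the whole span P2ry12 rose by 0.91 (SE 0.15, adjusted p = 7.44e-05).

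P2ry13, the related ADP receptor, was called in 1 consecutive step. Its normalized read count was 137, 133 and 95.4 at P18, 164, 114 and 135 at P75, 341, 292 and 235 at 6 months, and 216, 242 and 252 at 24 months. No library of the younger ages reached the lowest library of the later ages. From P75 to 6 months the mean went from 138 ± 25.3 to 289 ± 53.4 (SD, n = 3), a log2 change of 1.06 (SE 0.17, limma Benjamini-Hochberg adjusted p = 8.28e-05), the largest rise among the 9 genes in any consecutive step. From 6 to 24 months the estimate for P2ry13 was negative and not called (-0.27, adjusted p = 0.266), and the libraries overlapped.

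P2ry12 and P2ry13 are neighbours on chromosome 3 of NCBIM37, at chr3:59020193-59066753 and chr3:59011818-59014804, both on the minus strand and both inside the span of Med12l on the plus strand, with which they share 0 exon bases.

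Gpr34, the lysophosphatidylserine receptor (chrX:13209215-13217984, plus strand, within the span of Cask on the other strand), showed the largest rise over the whole span. Its values were 298, 269 and 161 at P18, 394, 267 and 410 at P75, 425, 404 and 477 at 6 months, and 690.5, 657 and 687 at 24 months. The 24 month libraries stood clear of all others, and P18 and P75 overlapped, as did P75 and 6 months. The means were 243 ± 72.4, 357 ± 78.3, 435 ± 37.5 and 678 ± 18.2 (SD, n = 3). Gpr34 rose from P18 to P75 (0.58, SE 0.19, limma Benjamini-Hochberg adjusted p = 0.0223) and from 6 to 24 months (0.64, SE 0.19, adjusted p = 0.0276), and its step in between was 0.31 (adjusted p = 0.183, and 0.11 without P75 replicate 2). The first of these rises was 0.31 (adjusted p = 0.096) without P18 replicate 3, and it was not called without P75 replicate 3 (0.47, adjusted p = 0.1002). From P18 to 24 months the log2 change was 1.53 (SE 0.19, adjusted p = 3.11e-06), a fold of 2.88. Among the 8 genes that rose over the whole span, Gpr34 alone was called between 6 and 24 months.

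Cx3cr1 (chr9:119957811-119977400, minus strand) had the smallest log2 change over the whole span among the 8 genes that rose. The fractalkine receptor stood at 599, 524 and 519 at P18, 508, 532 and 559 at P75, 776, 593 and 651 at 6 months, and 661, 723 and 784 at 24 months. The younger ages overlapped each other, as did the later ages, and all later libraries but 1 lay above every younger library. The change from P18 to P75 was -0.04 (limma Benjamini-Hochberg adjusted p = 0.812). From P75 to 6 months Cx3cr1 rose by 0.33 (SE 0.11, adjusted p = 0.0161, and 0.103 without 6 months replicate 1), from a mean of 533 ± 25.7 to 673 ± 93.5 (SD, n = 3). From P18 to 24 months it rose by 0.40 (SE 0.11, adjusted p = 0.00369), a fold of 1.32.

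Csf1r, the receptor for CSF1 and IL34, was called in 1 consecutive step, between P75 and 6 months. Its values were 750, 749 and 623 at P18, 765, 751 and 780 at P75, 1394, 1370.5 and 1198 at 6 months, and 1158, 1332 and 1495 at 24 months. The 6 libraries of the younger ages lay between 623 and 780 and the 6 of the later ages between 1158 and 1495, with a gap between them. The means at P75 and 6 months were 765 ± 14.7 and 1321 ± 107 (SD, n = 3), and the log2 change was 0.78 (SE 0.10, limma Benjamini-Hochberg adjusted p = 1.44e-05). From 6 to 24 months it was 0.00 (95% interval -0.22 to 0.22). The exons of Csf1r (chr18:61265226-61291803, plus strand) share 871 bases, 16.7% of their merged length, with Hmgxb3 on the other strand, and whether reads were counted by strand is not stated in the sources used here. Hmgxb3 stood at 803 ± 73.7 at P75 and 699 ± 15.1 at 6 months (SD, n = 3), so its mean was lower where that of Csf1r was higher.

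Siglech (chr7:63023548-63034295, plus strand), the lectin receptor, rose at the start of the series. It had 213, 179 and 151 at P18, 255, 242 and 263 at P75, 314, 247 and 267 at 6 months, and 331, 306 and 345 at 24 months. Each P75 library exceeded each P18 library, and from P75 on neighbouring ages overlapped. The log2 change from P18 to P75 was 0.50 (SE 0.13, limma Benjamini-Hochberg adjusted p = 0.00546), from 181 ± 31.1 to 253 ± 10.6 (SD, n = 3). The following steps were 0.12 (adjusted p = 0.459) and 0.25 (adjusted p = 0.175), and the whole span gave 0.87 (SE 0.13, adjusted p = 2.05e-05).

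Itgam, or CD11b (chr7:135206154-135271674, plus strand), rose in both of the first steps. The chain shared by microglia with other myeloid cells had 165, 145 and 88.4 at P18, 200.4, 193 and 217 at P75, 378, 319 and 303 at 6 months, and 313, 417 and 352 at 24 months. P18, P75 and 6 months were separated without overlap, and 6 and 24 months overlapped. The means were 133 ± 39.7, 203 ± 12.2, 333 ± 39.6 and 361 ± 52.7 (SD, n = 3). The changes of Itgam were 0.66 (SE 0.18, limma Benjamini-Hochberg adjusted p = 0.00834, and 0.39 without P18 replicate 3) from P18 to P75, 0.70 (SE 0.18, adjusted p = 0.00388) from P75 to 6 months and 0.11 (adjusted p = 0.705) from 6 to 24 months.

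Tmem119 (chr5:114243738-114250525, minus strand), the membrane marker, did not differ detectably between the younger ages. Its libraries had 295, 295 and 219 at P18, 289, 248 and 293 at P75, 534, 436 and 372 at 6 months, and 509, 497 and 519 at 24 months. The 6 younger libraries all lay under the 6 later ones, and within each of these sets the ages overlapped. The step from P18 to P75 was 0.05 (limma Benjamini-Hochberg adjusted p = 0.807, 95% interval -0.24 to 0.34). From P75 to 6 months Tmem119 rose by 0.68 (SE 0.14, adjusted p = 0.000618), from 277 ± 24.5 to 447 ± 81.6 (SD, n = 3), and from 6 to 24 months it changed by 0.20 (adjusted p = 0.313).

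**Figure D2:**
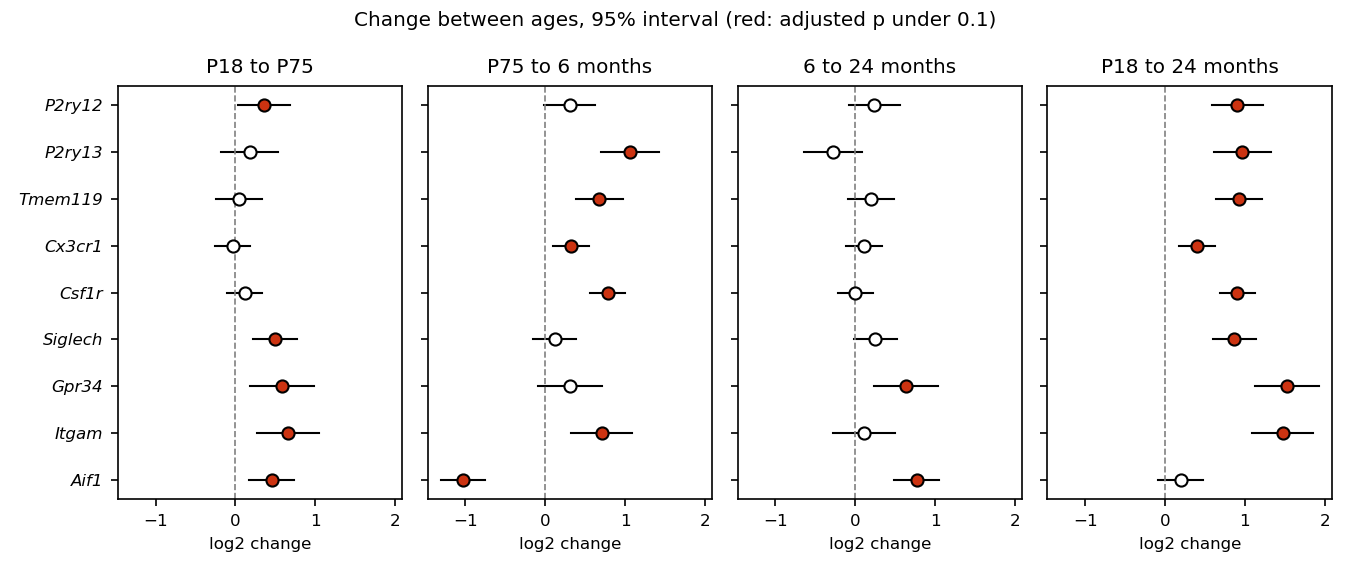
Log2 change of each gene (horizontal axis) in 4 comparisons of ages, with 95% intervals from limma and red points for an adjusted p under 0.1. Aif1 lies at -1.03 from P75 to 6 months, opposite to the 5 genes called there, and at 0.20 from P18 to 24 months, where the other 8 are red.

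Aif1 (chr17:35307936-35313013, minus strand) followed another course. The normalized read count of this IBA1 transcript was 318, 304 and 229 at P18, 446, 344 and 375 at P75, 197, 172 and 197 at 6 months, and 300.2, 343 and 324 at 24 months. All 3 libraries at 6 months were below every other library, and P18 and 24 months overlapped. The means were 284 ± 48.0, 388 ± 52.3, 189 ± 14.3 and 322 ± 21.3 (SD, n = 3). Aif1 rose from P18 to P75 (0.46, SE 0.13, limma Benjamini-Hochberg adjusted p = 0.0114), fell by 1.03 from P75 to 6 months (SE 0.13, adjusted p = 1.11e-05) and rose again by 0.77 from 6 to 24 months (SE 0.13, adjusted p = 0.00188). From P18 to 24 months its change was 0.20 (adjusted p = 0.21) and from P75 to 24 months -0.26 (adjusted p = 0.117). The last of these was called lower under 6 of 25 alternatives, among them quantile normalization (-0.34, adjusted p = 0.0365) and the fit without P75 replicate 2 (-0.34, adjusted p = 0.0756), and it was -0.16 without P75 replicate 1.

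Aif1 is the shortest of the 9 genes, and short transcripts as a whole were lower at 6 months. Its longest annotated transcript has 875 bases, against 2088 to 4803 bases for the others. Transcript lengths were found for 98.5% of the genes tested, and these genes were divided into 8 classes of about equal size by length. In the shortest class (39 to 1435 bases, 1806 genes, Aif1 among them) the median log2 change from P75 to 6 months was -0.52 and 64.1% of genes fell, whereas in the class of the longest transcripts the median was 0.13 and 18.1% fell. Of the shortest class 13.8% of genes lay below the change of Aif1. From 6 to 24 months the shortest class rose (median 0.25, 36.5% of genes called higher), and 92.5% of it lay below Aif1. The other 8 genes belong to longer classes, whose medians lay between -0.01 and 0.16 from P75 to 6 months. When the trend of each library with transcript length was removed, an alternative chosen after seeing the data, the fall of Aif1 was 0.40 (log2 change -0.40, SE 0.16, limma Benjamini-Hochberg adjusted p = 0.0454) and its second rise 0.49 (adjusted p = 0.0443). On that scale Aif1 was also called higher at 24 months than at P18 (0.55, adjusted p = 0.00673), its change from P75 to 24 months was 0.09 (adjusted p = 0.665), and the calls of the other 8 genes were as before.

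**Figure D3:**
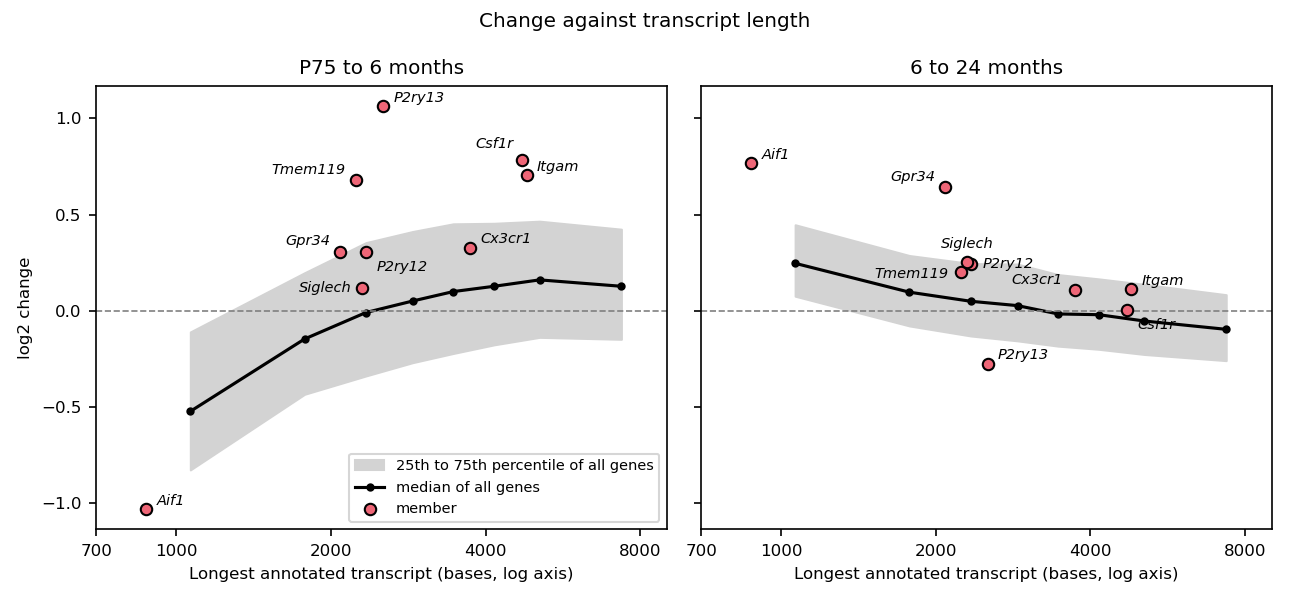
Log2 change (vertical axes) between P75 and 6 months (left) and between 6 and 24 months (right) against the longest annotated transcript in bases (log axis), with the median (line) and the 25th to 75th percentile (grey) of 8 length classes of all genes and the 9 homeostatic genes as points. Aif1, at 875 bases, belongs to the shortest class, whose median is -0.52 in the left panel and 0.25 in the right. At -1.03 and 0.77, Aif1 lies outside the 25th to 75th percentile of that class (-0.83 to -0.11 and 0.08 to 0.45).

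Some markers of blood leukocytes were lowest at 6 months, as Aif1 was. The 9 markers summed to 45.2 to 145 at P18, 96.2 to 213 at P75, 31.1 to 47.9 at 6 months and 74.98 to 314 at 24 months, none was at 0 in the whole series, and only the neutrophil genes S100a8 and S100a9 reached a mean of 10. S100a8 fell by 2.71 on the log2 scale from P75 to 6 months (limma Benjamini-Hochberg adjusted p = 0.00297), S100a9 fell by 2.37 (adjusted p = 0.000439), and both rose from 6 to 24 months, with wide spread at 24 months (59.3 ± 50.4 for S100a8 and 85.6 ± 59.6 for S100a9, SD, n = 3). From P18 to P75, where Aif1 rose, both estimates were positive and neither was called. They were 0.76 for S100a8 (SE 0.67, adjusted p = 0.386) and 0.90 for S100a9 (SE 0.46, adjusted p = 0.129). Neither gene was compared with its class of transcript length. Their part in the change of Aif1 was not tested.

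Per kilobase of merged exons, over all 12 libraries, P2ry12 had the highest level (434 normalized reads per kilobase), followed by Gpr34 (205), Csf1r (197), Aif1 (193), Cx3cr1 (166), Tmem119 (162), P2ry13 (77.8), Siglech (76.6) and Itgam (40.4). The spread over ages of a single gene was wider than the distances from Gpr34 to Tmem119, and those between P2ry13 and Siglech, so the order among these neighbours is not a difference beyond their spread. Gpr34, for instance, ran from 116 per kilobase at P18 to 325 at 24 months. Per kilobase of the longest transcript, Aif1 stood in the second place instead of the fourth.

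Across the 12 libraries, the 8 genes other than Aif1 varied together, with Pearson correlations of log2 levels between 0.74 and 0.97 for their 28 pairs. Aif1 had correlations of -0.45 to 0.11 with them. These are descriptions over 4 ages of 3 libraries each, in which the genes share libraries and the difference between ages. Of the 14625 other genes tested, 582 had a correlation over 0.9 with the mean profile of the 9. The 10 most alike were Slc16a1, the monocarboxylate transporter MCT1, with 0.981, Bmper with 0.977, and then Smpdl3a, Tor3a, Canx, Tspan8, Lamp2, Rnf13, Tmem41b and Slc30a1, down to 0.970. This short list is loosely set, since leaving out 1 library kept as few as 3 of the 10 genes, and a rank correlation kept 2.

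The ligands, partners and upstream factors of the homeostatic genes were followed as a list of 13 genes, chosen by role. Tgfb1 and Smad3 are among the upstream factors. Of these, 8 rose and 1 fell from P18 to P75 (25.9% and 22.9% of all genes). From P75 to 6 months 9 rose and 1 fell (31.2% and 29.4%), and from 6 to 24 months 7 rose and 1 fell (16.6% and 12.7%). The gene that fell was Tgfb1 in the first step (-0.59), Tyrobp in the second and Smad3 in the last (-0.30). Over the whole span 12 rose and none fell (34.7% and 34.3%), with a median log2 change of 1.25. Il34, a ligand of Csf1r made by neurons, rose from 461 ± 45.8 (SD, n = 3) at P75 to 881 ± 42.5 at 6 months, a log2 change of 0.94 (limma Benjamini-Hochberg adjusted p = 3.81e-06). Csf1, the other ligand of Csf1r, rose by 0.57 in that step (adjusted p = 0.000215). Cx3cl1, which encodes fractalkine, rose by 0.86 (adjusted p = 0.000347) where its receptor Cx3cr1 rose by 0.33. Itgb2, the beta chain that pairs with Itgam, rose in all 3 consecutive steps, by 0.79, 0.59 and 0.89 (adjusted p = 0.00155, 0.00803 and 0.00307), so that from 6 to 24 months the beta chain was called higher and the alpha chain Itgam (0.11) was not. Whether the 2 changes differ was not tested. Tyrobp, the adaptor through which Siglech signals, rose by 0.45 from P18 to P75, fell by 0.29 from P75 to 6 months and rose by 1.24 from 6 to 24 months (adjusted p = 0.00793, 0.0568 and 3.65e-05). That is the order of signs seen for Aif1. The class of the shortest transcripts also fell from P75 to 6 months (median -0.52) and rose from 6 to 24 months (median 0.25). Tyrobp was not compared with its own length class.

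Of 7 transcription factors of microglia, none rose and 4 fell from P18 to P75. In that step 5 of the 9 homeostatic genes rose, and of all genes 25.9% rose and 22.9% fell. From P75 to 6 months 2 factors rose and 1 fell (31.2% and 29.4% of all genes). From 6 to 24 months 1 rose and 2 fell (16.6% and 12.7%). From P75 to 24 months 4 rose and none fell (28.8% and 26.1%). Over the whole span 1 rose and 1 fell (34.7% and 34.3%). Sfpi1, the gene of PU.1, had a mean of 88.7 ± 16.6 at P18, and its means at the 3 later ages were 52.9 ± 3.63, 59.7 ± 4.87 and 79.2 ± 10.8 (SD, n = 3). It fell by 0.72 in the first step (limma Benjamini-Hochberg adjusted p = 0.00289) and rose by 0.57 from P75 to 24 months (adjusted p = 0.012).

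Lists of other microglial and myeloid genes are given beside the 9 homeostatic genes. Of all genes tested, 25.9% rose and 22.9% fell from P18 to P75, and 31.2% rose and 29.4% fell from P75 to 6 months. From 6 to 24 months 16.6% rose and 12.7% fell, and over the whole span 34.7% rose and 34.3% fell. Of 11 further microglia-enriched genes, 5 rose in each consecutive step and 10 over the whole span, with a median log2 change of 0.90. Selplg, which like Csf1r rose from P75 to 6 months (0.87, limma Benjamini-Hochberg adjusted p = 7.65e-06), had a change of 0.00 (adjusted p = 0.981) from 6 to 24 months. Among 13 genes common to myeloid cells, 10 rose from P18 to P75, 6 rose and 2 fell from P75 to 6 months, and 12 rose from 6 to 24 months with a median of 0.92, where the 9 homeostatic genes had 2 called and a median of 0.20 (0.0879 without 6 months replicate 3). Of 10 genes of activated microglia, 9 rose in this last step with a median of 2.03. Clec7a, a lectin of phagocytic microglia, went from a mean of 19.4 to 152 (n = 3), a log2 change of 2.98 (adjusted p = 3.38e-05). The summed level of the 9 homeostatic genes, divided by that of the 13 myeloid genes, was 0.43 to 0.58 at P18, 0.39 to 0.46 at P75, 0.47 to 0.54 at 6 months and 0.28 to 0.35 at 24 months, so all 3 libraries at 24 months lay below the other 9. This ratio is a description with no correction for transcript length, and the difference between the lists was not tested.

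**Figure D4:**
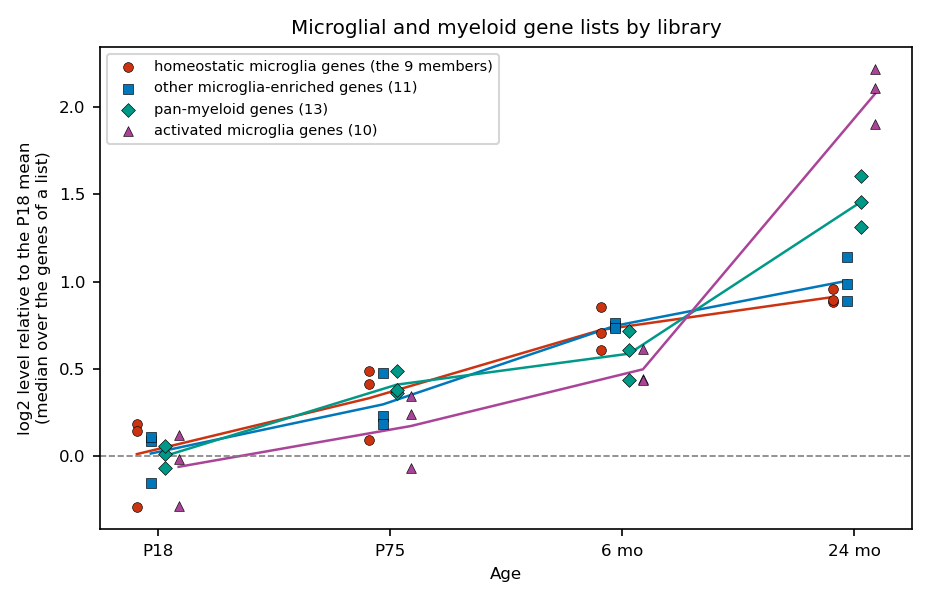
Median over the genes of a list of the log2 level relative to the P18 mean (vertical axis) at the 4 ages, with 1 symbol per library and lines through the mean of 3 libraries. The 9 homeostatic genes end at 0.88 to 0.96 at 24 months, the 13 myeloid genes at 1.31 to 1.60 and the 10 activated microglia genes at 1.90 to 2.22.

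The markers of other cells gave the setting of these changes. The summed normalized read count of the 9 homeostatic genes was 2611 to 3636 at P18, 3443 to 4059 at P75, 4789 to 5590 at 6 months and 5562 to 6089 at 24 months, beside 97458 to 118589 for 8 astrocyte markers and 155577 to 219149 for 8 neuron markers over all ages. Border macrophages also express Csf1r, Cx3cr1, Itgam and Aif1. Their 8 markers summed to 410 to 512 at P18 and 363 to 377 at P75. At 6 months the sum was 396 to 409 and at 24 months 454 to 542. Over the whole span 3 of the 8 rose and 2 fell (34.7% and 34.3% of all genes). From P75 to 24 months 5 rose and 1 fell (28.8% and 26.1%). From P75 to 6 months, the step of P2ry13, Tmem119 and Csf1r, 4 of 7 endothelial markers rose (median 0.64, summed level 895 to 962 at P75 and 1248 to 1432 at 6 months), as did 3 of 8 astrocyte, 5 of 8 neuron and 4 of 5 oligodendrocyte precursor markers, while 1, 2 and 0 of these fell. Of all genes tested, 31.2% rose and 29.4% fell from P75 to 6 months. From P18 to P75, where Siglech, Itgam and Gpr34 rose, 8 of 8 myelin genes fell, with a median log2 change of -1.21. In that step 22.9% of all genes fell. Of 3 red blood cell markers, Hba-a1 and Hbb-b1 were listed at 0, and Alas2, an enzyme of heme synthesis, had a mean of 416 ± 55.1 at P18 and of 41.1 ± 4.32 at P75 (SD, n = 3), with a log2 change of -3.30 between them (limma Benjamini-Hochberg adjusted p = 4.55e-08). The part of these other cells in the changes of the homeostatic genes was not tested.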

How the data were processed

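RNA of myelin purified from mouse brain was measured in 12 libraries, 3 at each of 4 ages, grouped by the age in the labels. TopHat alignments to mm9 were counted per gene by the authors with HTSeq (0.5.4p1 per the submitters' processing notes), and each count was divided by a DESeq size factor. The deposited signal is this normalized read count, on a linear scale, with no length correction. The annotation used for counting and the handling of strand are not given in the sources used here. Every column was used.

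Dividing each library by the value of 1 read gave whole reads (within 0.1 read) for 100% of values. In 3 libraries (P18 replicate 3, P75 replicate 1 and 24 months replicate 1) this value is so near 1 that low values alone do not show it, and it was found over all values. The recovered reads give the depth and the counting error of each value. No interval covers more than counting error or the spread between libraries.

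Ages were compared with limma 3.58.1 (trend, empirical Bayes; R 4.3.3) on log2(normalized read count + 1). The 14634 genes tested had a mean of 10 or more, all 12 libraries entered 1 fit with age as the only factor, and p-values were adjusted by Benjamini-Hochberg over all these genes. A log2 change is therefore on the log2(value + 1) scale. An exact test of 3 against 3 libraries could not go below a p of 0.1 and was not used. The fit was tried on simulated counts with the same dispersion for every gene. This cannot show how the fit performs at the spread of these libraries. Libraries that share a replicate number across ages are not from the same mice. The correlation of the deviations of such libraries was 0.10 to 0.19 for P75 and 6 months. In every other comparison no pair went above 0.0286. The replicate number entered only the alternative fit with a replicate block.

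Alternatives were pseudocounts of 0.5 and 10, no filter and a mean over 100, only the 2 ages compared, the replicate block, equal library totals, quantile normalization, edgeR 4.0.16 and DESeq2 1.42.0 on the recovered reads, an adjusted p under 0.05, and each library left out. Removing the length trend (20 bins), leaving out P18 replicate 3 with P75 replicate 2, and the profile without Aif1 were chosen after seeing the data. Genes were placed with GENCODE vM1 on NCBIM37, and promoters of GRCm38.p6 were matched to it letter for letter. The 9 genes and all lists were chosen with earlier results of these data known. Named were the 9 genes, up to 5 of each list (the most abundant and those against the count) and the 10 genes most alike. Csf1, Il34, Itgb2, Sfpi1, Selplg, Clec7a, S100a8 and S100a9 were named for their roles after values were seen. Not every gene that the rule allowed was named. The results of some genes are not reported here.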

Additional observations from a re-analysis of the deposited data

How the results depend on the processing

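Over 25 settings, 1087 of 1125 values of single genes kept their direction and side of the threshold, 21 gained a call, 7 lost one and 10 changed sign, 9 of these among changes that were not called at any setting. Cx3cr1 from P18 to P75 was 0.0891 with libraries scaled to the same total and -0.0726 to 0.0301 with 1 library left out. Tmem119 in that step was -0.0204 after quantile normalization, -0.0198 without P18 replicate 3 and P75 replicate 2, and -0.0951 to 0.123 with 1 library left out. Csf1r from 6 to 24 months was -0.0364 at the same total and -0.0854 to 0.0986 with 1 library left out. Aif1 from P75 to 24 months was 0.0895 with the length trend removed, and its fall to 6 months kept its sign and its call throughout (-1.11 to -0.40). The median log2 change of the 9 genes from P18 to P75 was 0.139 to 0.505 with 1 library left out, lowest without P18 replicate 3 (from 6 to 24 months 0.0879 to 0.3005, lowest without 6 months replicate 3), and 3 to 5 genes were called from P18 to P75, fewest without P75 replicate 3. All genes called from 6 to 24 months numbered 4287, 2856 at an adjusted p under 0.05, and 2478 to 5323 with 1 library left out, lowest without 6 months replicate 1. Of the 10 genes most like the profile, 2 stayed by Spearman's rho, 5 without Aif1 in the profile, and 3 to 9 with 1 library left out. By longest transcript, 3 of 9 places in the order per kilobase were the same. The replicate block changed no call of the 9 genes other than that of P2ry12 from P75 to 6 months (0.30, adjusted p = 0.0916, limma with Benjamini-Hochberg adjustment). The causes were not tested. Counting error was under the spread between replicates for 31 of 36 means of a gene at an age.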
